A study of Homo sapiens with 8 samples.

Results

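The BMP and TGF-beta family was described in endothelial cells differentiated from WTC-TJP1, a human line of induced pluripotent stem cells (iPSC). The genes were chosen by name: protein-coding entries of the deposited table for BMP, GDF, TGF-beta, activin and inhibin ligands, their receptors, SMAD and ID proteins, latent TGF-beta binding proteins and a short set of antagonists and regulators. This gave 65 genes of the 30386 listed. RNA sequencing covered 8 libraries, 4 from endothelial cells (iEC) and 4 from the retinal endothelial cells of the series' title (iREC), made by a matched differentiation of the same line. All were taken at passage 1, and the 4 libraries of each group are lettered C to F. The labels name the same cell type for both groups and no genetic or drug contrast between them, and the differentiation protocols are not given in the sources used here. The labels do not say whether the libraries came from separate differentiations, so the p-values measure the spread between these libraries, which may be technical. Gene positions are those of the deposited table, on build hg38.

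Ligands of this family are secreted dimers that bring type I and type II receptor kinases together at the cell surface. The type I kinase then phosphorylates receptor-regulated SMAD proteins: SMAD1, SMAD5 and SMAD9 downstream of BMP receptors, and SMAD2 and SMAD3 downstream of TGF-beta and activin receptors. These join SMAD4 and act in the nucleus, where ID genes and the inhibitory SMAD6 and SMAD7 are well-known targets. Endothelial cells are known for the receptor ACVRL1 (ALK1) and the coreceptor endoglin, which bind circulating BMP9 and BMP10 and whose loss causes vascular malformations in people.

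Promoter sequence is shown for 4 readout genes of the pathway, because the results below turn on how unevenly they moved. These are ID1 and ID4, the inhibitory SMAD6, and BAMBI, a pseudoreceptor without a kinase domain. The sequences are RefSeq promoters on GRCh38.p14, the plus strand for all 4, and end at the base before the annotated start (chr20:31605039-31605288, chr6:19837120-19837369 and chr15:66701986-66702235). For BAMBI only chr10:28677271-28677345 is shown, because GENCODE transcripts of the gene begin there. Capitals mark matches on either strand to GGCGCC and GGAGCC, GC-rich elements tied to SMAD1 and SMAD5, to the CAGA box CAGACA and to the palindrome GTCTAGAC.
ID1: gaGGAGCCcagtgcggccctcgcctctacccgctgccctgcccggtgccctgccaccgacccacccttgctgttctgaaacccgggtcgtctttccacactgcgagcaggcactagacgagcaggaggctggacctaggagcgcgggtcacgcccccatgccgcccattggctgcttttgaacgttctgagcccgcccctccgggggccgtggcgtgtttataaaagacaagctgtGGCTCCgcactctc
ID4: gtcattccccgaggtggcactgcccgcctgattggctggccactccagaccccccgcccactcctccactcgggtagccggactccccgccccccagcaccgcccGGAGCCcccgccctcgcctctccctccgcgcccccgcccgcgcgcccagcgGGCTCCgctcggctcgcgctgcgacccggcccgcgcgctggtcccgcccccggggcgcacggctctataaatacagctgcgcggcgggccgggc
SMAD6: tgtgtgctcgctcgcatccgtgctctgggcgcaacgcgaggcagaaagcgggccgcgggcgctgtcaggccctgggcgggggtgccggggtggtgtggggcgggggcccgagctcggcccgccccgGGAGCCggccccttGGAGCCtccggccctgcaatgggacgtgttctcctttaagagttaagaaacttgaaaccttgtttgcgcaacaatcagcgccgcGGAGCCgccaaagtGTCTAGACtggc
BAMBI: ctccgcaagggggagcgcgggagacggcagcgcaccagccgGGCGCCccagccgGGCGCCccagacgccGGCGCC
No 2 of these motifs overlapped in the windows shown. GGAGCC matched 2 times each in ID1 and ID4, a motif found in 30.7% of the 34943 RefSeq windows of 250 bases. SMAD6 held GGAGCC 3 times and the palindrome once, 12 bases before the RefSeq start, and 0.183% of all windows hold that palindrome. GENCODE exons cover 8 bases at the end of the SMAD6 window, so the palindrome runs across the GENCODE start of the gene. BAMBI held GGCGCC 3 times, 209, 196 and 181 bases before the start, where 16.4% of all windows have it. The last of these runs across the GENCODE start, and past the bases shown GGAGCC matched 4 times within GENCODE exons. G and C made up 66% to 81.2% of the 4 full windows, against a median of 58% over all windows. The shares of all windows are therefore not at equal composition. CAGACA, which 13.6% of all windows hold, was in none of the 4. A match is a description of letters and not evidence of binding.

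The iEC libraries held 14877502 to 16971865 counts each and the iREC libraries 13739364 to 15987839. Levels are given as CPM, the counts of a gene scaled to a common library size with TMM factors, in the order C, D, E and F. A count of 3 in a library, from 0.178 to 0.215 CPM, was taken as the floor of detection. All 12 endothelial markers were above that floor, and their summed level was 7552 to 9574 CPM in iEC and 4575 to 10268 CPM in iREC. Single markers differed: PECAM1 (2.96-fold), CDH5, EGFL7, ESAM and ROBO4 were called lower in iREC, and TEK, EMCN and CLDN5 higher. The 15 mural and mesenchymal markers summed to 187 to 406 CPM in iEC and to 264, 633 and 296 CPM in iREC C, D and E, but to 3308 CPM in iREC F. COL3A1, COL1A1 and LUM made up 1641, 449 and 429 CPM of the value in F. Members of this list moved both ways: NOTCH3, MYH11 and LUM were called higher in iREC, and RGS5 and PRRX1 lower. RGS5 was 60.8 to 161 CPM in iEC and 29.2 to 70.5 CPM in iREC. The 8 epithelial markers summed to 391 to 1174 CPM in iEC and to 303, 1119 and 424 CPM in iREC C, D and E. In iREC F they summed to 4925 CPM, and the endothelial sum there was the lowest of the 8 libraries at 4575 CPM. KRT8 and KRT18 made up 3025 and 1538 CPM of the epithelial value in F, and were 145 to 598 and 228 to 465 CPM in iEC. GRHL2 was lowest of the iREC libraries in F, at 0.393 CPM, and the other epithelial markers were highest there. Pluripotency markers (4 of 6 above the floor; NANOG and TDGF1 were not) summed to 39.0 to 91.0 CPM in iEC, and to 53.3 to 173 CPM in iREC C, D and E against 505 CPM in F. LIN28A made up 482 CPM of the value in F, and the other 5 markers summed to 23.3 CPM there, the lowest of the 4 iREC libraries. POU5F1 had at most 19 counts in any library and SOX2 at most 6. Blood markers (2 of the 6 listed above the floor) stayed at or below 3.66 CPM, cardiomyocyte markers (4 of 5) at or below 7.99 CPM and retinal neuron and pigment epithelium markers (4 of 5) at or below 4.58 CPM. iREC F therefore stands apart, and called values that move by over 1.5 times without it are given both ways. In these bulk libraries, fewer cells of a type and less RNA per cell cannot be told apart.

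**Figure D1:**
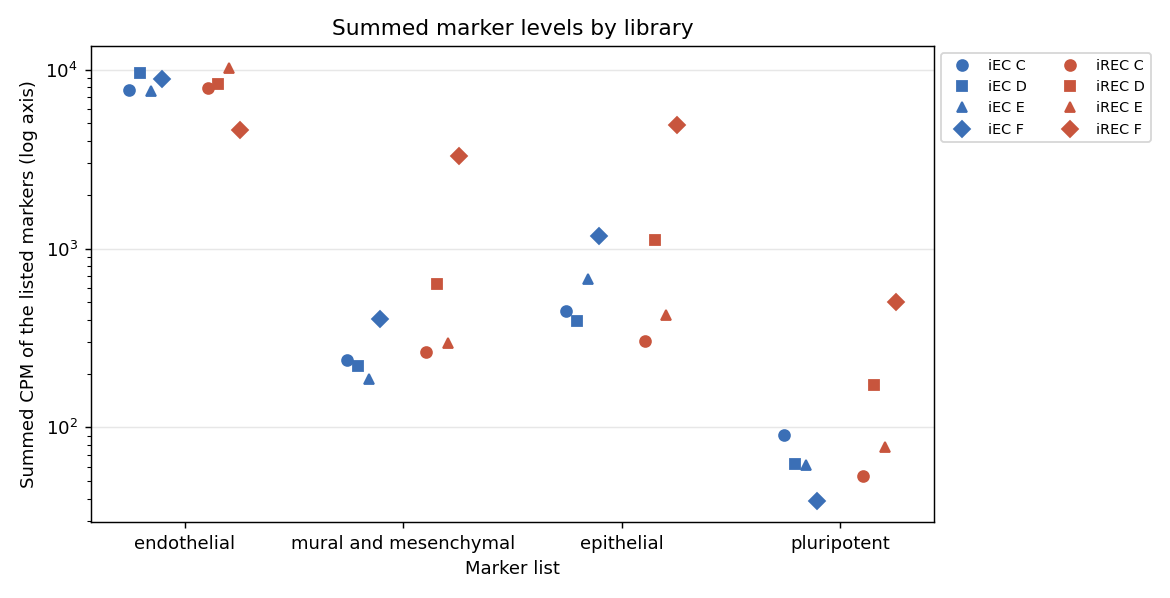
Summed CPM of the endothelial, mural and mesenchymal, epithelial and pluripotent marker lists on a log axis, 1 symbol per library (blue iEC, red iREC, symbol shape for the replicate letter). The iREC F diamond lies below the other iREC libraries for endothelial markers and above all other libraries for the other 3 lists.

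Most of the family members that differed between the groups were higher in iREC. The increases were in ligands, type I receptors, SMAD6, SMAD7, SMAD9, ID2, ID4, LTBP4, TGFBR3 and BAMBI, and in 1 extracellular modulator, BMPER. The falls were in GDF11, GDF15, TGFB1, LTBP2, SMAD1 and TGIF1, and ID1 and ID3 were not called. Of the 65 members, 51 passed the filter on low counts, and edgeR's quasi-likelihood test called 20 higher and 6 lower in iREC at an adjusted p under 0.05. Over all 15330 genes tested, 13.2% were called higher and 11.7% lower, and 25.0% in all. The median log2 fold change was 0.19 over the 51 members, -0.01 over the 43 that passed the filter in both groups and 0.02 over all genes. Members were chosen with earlier results of these data known, and 5 of them (GDF3, GDF6, GDF7, BMPER and SMAD7) passed the filter through their iREC level, so the counts describe these genes and are not evidence about the family as a whole. Among those 43 members, 15 were higher and 6 lower. The groups did not overlap in 26 of the 51, against 29.1% of all genes. Without iREC F, 19 members were higher and 8 lower. The authors' deposited table lists 26 members with an adjusted p under 0.05, and all 26 are called here in the same direction.

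**Figure D2:**
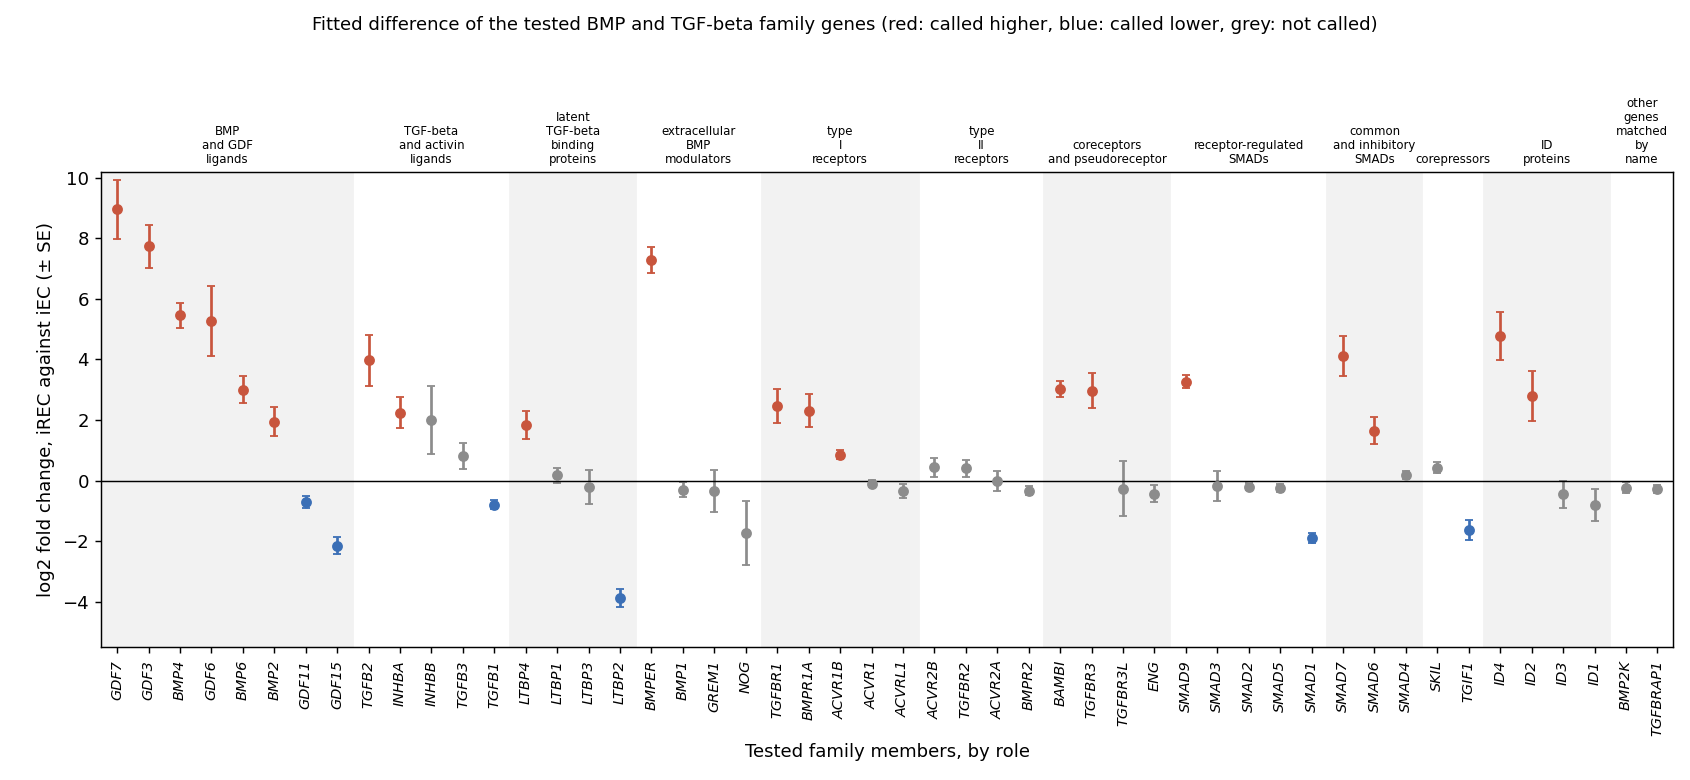
Fitted log2 fold change of iREC against iEC with its standard error for the tested members whose values are reported, grouped by role; red is called higher, blue called lower and grey not called. GDF7 and GDF3 have the largest positive values, and LTBP2 the largest negative one; each of the 4 type II receptors is grey.

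Among BMP and GDF ligands, 6 rose and 2 fell of the 8 that could be tested, beside 25.0% called over all genes tested. GDF3, GDF6 and GDF7 passed the filter through their iREC level, and 9 of the 17 ligands were untested, so this count is a description. BMP4 (ENSG00000125378, chromosome 14, 53949736 to 53958761), a ligand that patterns mesoderm and drives endothelial specification, had 2.47, 4.93, 1.66 and 3.15 CPM in iEC and 189, 111, 77.9 and 157 CPM in iREC. Every iREC library lay far above every iEC library, a 43.9-fold rise of the mean from 3.05 ± 1.39 to 134 ± 49.3 CPM (n = 4, SD). The edgeR test gave a log2 fold change 5.46 ± 0.41 (SE), adjusted p 4.70e-05. BMP6 (ENSG00000153162, chromosome 6, 7726797 to 7881422), which endothelial cells secrete and which controls iron balance in the liver, had 26.2, 67.3, 20.8 and 27.7 CPM in iEC and 392, 271, 346 and 132 CPM in iREC. The groups did not overlap, although the highest iEC library, D, and the lowest iREC library, F, came within about 2-fold of each other. The mean rose 8.03-fold (log2 fold change 3.0 ± 0.45 (SE), adjusted p 0.00145, edgeR). BMP2 (ENSG00000125845, chromosome 20, 6767664 to 6780280), a close relative of BMP4, had 14.2, 6.64, 40.0 and 20.8 CPM in iEC and 59.3, 86.2, 114 and 55.9 CPM in iREC. Its rise was smaller, 3.86-fold (log2 fold change 1.95 ± 0.48 (SE), adjusted p 0.0173, edgeR), and the call was lost without iEC C, at an adjusted p of 0.0540.

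GDF7 (also called BMP12) (ENSG00000143869, chromosome 2, 20666664 to 20679245) showed the widest gap, and GDF7, GDF6 and GDF5 form a subgroup of the family known from joints and tendons. GDF7 had 0.260, 4.05, 0.237 and 0.215 CPM in iEC and 841, 584, 715 and 258 CPM in iREC. It was near the floor in 3 iEC libraries, so the fitted value, 8.96 ± 0.98 (SE) on the log2 scale at an adjusted p of 0.000281 (edgeR), rests on iEC D and was 11.24 without it. An opposite-strand long noncoding gene covers 6.96% of GDF7 exon bases. GDF6 (ENSG00000156466, chromosome 8, 96142330 to 96160792) had 0.195, 0.569, 3.85 and 6.30 CPM in iEC and 31.3, 53.7, 26.1 and 309.8 CPM in iREC. All iREC libraries were above all iEC libraries, but iREC F was several times the others (log2 fold change 5.28 ± 1.16 (SE), adjusted p 0.00987, edgeR). The log2 fold change was 3.77 without iREC F (adjusted p 0.011) and 6.06 without iEC F. GDF5 stayed untested, with at most 11 counts in any library.

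GDF3 (ENSG00000184344, chromosome 12, 7689782 to 7695776), a Nodal-related ligand of early embryos and pluripotent cells, had 0, 0.0632, 0 and 0 CPM in iEC, which is 1 count in all, and 5.76, 4.43, 7.63 and 2.82 CPM in iREC. Against the floor of 3 counts per library, it was at least 26.6-fold higher in iREC (edgeR adjusted p 0.00011). It was lowest in iREC F. The falls were in GDF15 and GDF11. GDF15 (ENSG00000130513, chromosome 19, 18374731 to 18389176), a stress-induced hormone that signals through the brainstem receptor GFRAL, had 294, 318, 533 and 492 CPM in iEC and 81.7, 92.8, 133 and 62.0 CPM in iREC. Its lowest iEC library was well above its highest iREC library, and the mean was 4.43-fold lower in iREC (log2 fold change -2.15 ± 0.28 (SE), adjusted p 0.00067, edgeR). GDF11 (ENSG00000135414, chromosome 12, 55743280 to 55757278), a relative of myostatin, had 33.0, 34.9, 38.9 and 44.7 CPM in iEC and 28.5, 19.9, 16.5 and 28.0 CPM in iREC. The groups were close without overlapping (log2 fold change -0.71 ± 0.20 (SE), adjusted p 0.03, edgeR), and the call was lost in each of the fits without iEC E, iEC F, iREC D or iREC E, at adjusted p up to 0.0920.

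The other 9 BMP and GDF ligands were too low to test. Most of them, BMP3, BMP5, BMP7, BMP8A, BMP8B, GDF2, GDF5 and GDF9, had at most 20 counts in any library. BMP8A and BMP8B are near-identical copies, so reads may have been split between them. GDF2 encodes BMP9, a main ACVRL1 ligand made by the liver, and had at most 1 count. BMP10, the other main ACVRL1 ligand and a product of the heart, had 0, 0.190, 0.296 and 0 CPM in iEC and 0.916, 1.64, 0.611 and 19.1 CPM in iREC, so that nearly all of it came from iREC F. The 5 cardiomyocyte markers listed summed to 7.99 CPM in that library and to at most 1.14 CPM in the others, and their part in the BMP10 value was not tested.

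**Figure D3:**
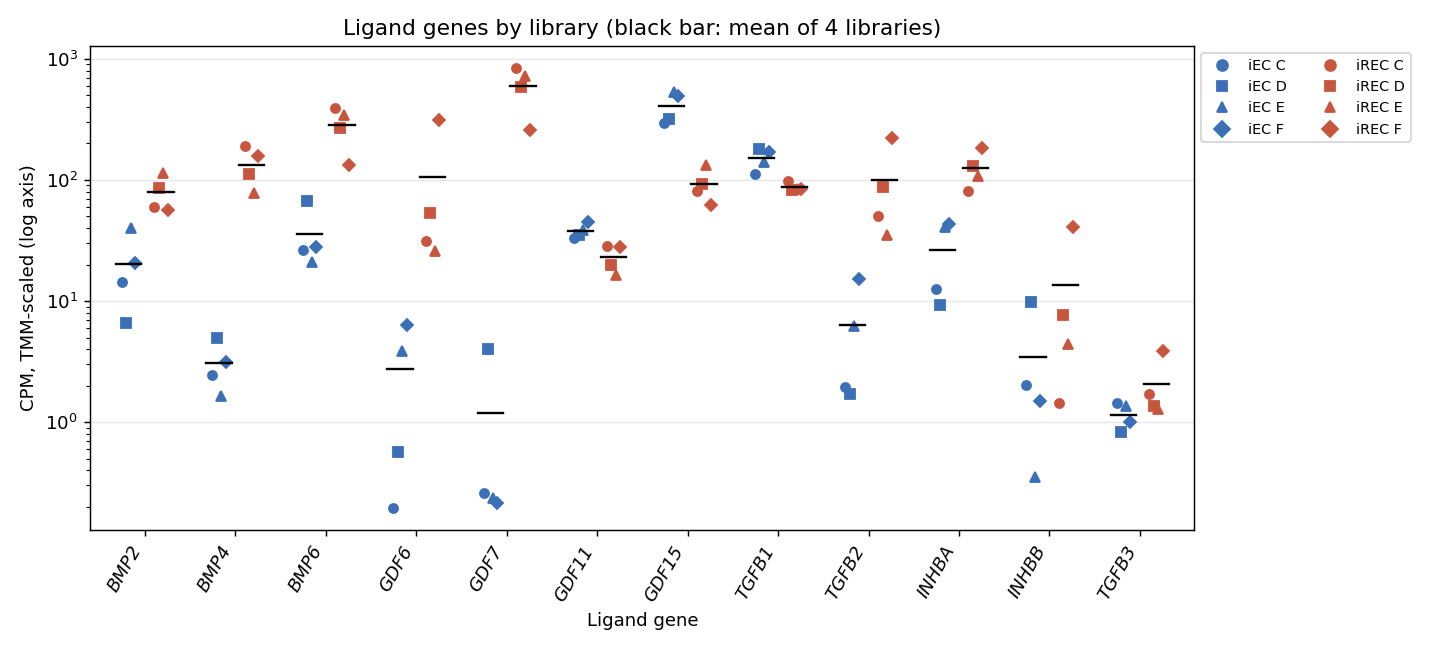
CPM of 12 ligand genes on a log axis, 1 symbol per library (blue iEC, red iREC) with the mean of 4 libraries as a black bar; GDF3 is left out because 3 of its iEC values are 0. BMP4, GDF7, GDF6 and TGFB2 lie higher in every iREC library, while GDF15 and TGFB1 lie lower.

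TGFB2 rose and TGFB1 fell. TGFB2 (ENSG00000092969, chromosome 1, 218346235 to 218444619), the isoform that drives endothelial-to-mesenchymal change in heart valves, had 1.95, 1.71, 6.27 and 15.3 CPM in iEC and 50.6, 87.2, 34.9 and 224 CPM in iREC. The groups did not overlap and F was highest in both of them. The mean was 15.7-fold higher in iREC (log2 fold change 3.98 ± 0.84 (SE), adjusted p 0.00813, edgeR), with a log2 fold change of 3.19 without iREC F (adjusted p 0.011) and 4.89 without iEC F. A short noncoding transcript on the same strand, TGFB2-OT1, shares 26.6% of its exon bases. TGFB1 (ENSG00000105329, chromosome 19, 41301587 to 41353911), the main isoform of blood and endothelium, had 112, 179, 141 and 171 CPM in iEC and 97.1, 82.2, 84.9 and 85.0 CPM in iREC. It fell 1.73-fold without overlap (log2 fold change -0.79 ± 0.16 (SE), adjusted p 0.00605, edgeR). HNRNPUL1, at 292 and 257 CPM on the opposite strand, overlaps 6.64% of TGFB1 exon bases, and whether counting used the strand is not stated, so its counts are uncertain. TGFB3 was low, at 1.15 ± 0.290 and 2.05 ± 1.22 CPM (SD, n = 4), and was not called (edgeR adjusted p 0.199).

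The gap between TGFB1 and TGFB2 was smaller in iREC. On the FPKM scale, which divides by gene length, TGFB1 was 46.5 ± 9.43 in iEC against 1.23 ± 1.23 for TGFB2 (SD, n = 4). In iREC the levels were 27.0 ± 2.06 and 19.3 ± 16.7 FPKM. TGFB2 was 9.83, 16.9 and 6.78 FPKM in iREC C, D and E, each below TGFB1 in the same library, and 43.5 FPKM in F, above it. INHBA (ENSG00000122641, chromosome 7, 41667168 to 41705834) encodes the subunit of activin A, which signals through SMAD2 and SMAD3. It had 12.5, 9.35, 41.0 and 42.9 CPM in iEC and 80.7, 130.3, 108 and 183 CPM in iREC. All 4 iREC libraries were higher, by 4.74-fold in the mean (log2 fold change 2.25 ± 0.51 (SE), adjusted p 0.0112, edgeR). INHBB, the activin B subunit, ranged from 0.355 to 9.86 CPM in iEC and from 1.44 to 41.1 CPM in iREC, highest in F. It was not called, with a log2 fold change of 1.99 (edgeR adjusted p 0.228) and 0.40 without iREC F (adjusted p 0.782). INHA and INHBE were untested, with at most 7 counts in any library.

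Latent TGF-beta binding proteins hold the inactive ligand in the matrix. LTBP2 (ENSG00000119681, chromosome 14, 74498170 to 74612378), a member that binds microfibrils and does not form the covalent latent complex, had the largest fall of the family. It had 378, 507, 685 and 879.9 CPM in iEC and 57.2, 34.4, 39.3 and 38.2 CPM in iREC. The lowest iEC library was several times above the highest iREC library, and the mean was 14.5-fold lower (log2 fold change -3.86 ± 0.30 (SE), adjusted p 5.09e-05, edgeR). LTBP4 (ENSG00000090006, chromosome 19, 40592883 to 40629818), which carries latent TGF-beta 1 and supports elastic fibres, had 1.11, 2.15, 4.38 and 4.37 CPM in iEC and 5.69, 11.8, 13.4 and 12.4 CPM in iREC. It rose 3.60-fold from a low level, and iREC C was the library nearest to iEC (log2 fold change 1.85 ± 0.45 (SE), adjusted p 0.0166, edgeR). LTBP1, the main carrier, had 49.6, 89.8, 50.4 and 99.8 CPM in iEC and 106, 66.2, 76.0 and 78.9 CPM in iREC. Its groups overlapped and it was not called (log2 fold change 0.17 ± 0.26 (SE), adjusted p 0.664, edgeR), nor was LTBP3 (adjusted p 0.827), whose sign changed between alternatives.

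One extracellular modulator of BMP signalling was called, and its change was wide. BMPER (ENSG00000164619, chromosome 7, 33904308 to 34156356), a secreted BMP-binding protein of the vasculature that can block or promote BMP4, had 0.390, 0.316, 1.12 and 0.787 CPM in iEC and 57.1, 127, 115 and 118 CPM in iREC. It was close to the floor in iEC, with at most 19 counts, and rose 159-fold in the mean (log2 fold change 7.29 ± 0.43 (SE), adjusted p 1.75e-05, edgeR). The classical antagonists differed between libraries of the same group. NOG (noggin) had 25.6, 1.33, 55.5 and 34.8 CPM in iEC and 0.785, 9.64, 2.63 and 22.1 CPM in iREC, so that iEC D and iREC C were near 1 CPM and others were far higher. It was not called (log2 fold change -1.74 ± 1.05 (SE), adjusted p 0.262, edgeR), and was still not called without iREC F, at -2.76 (adjusted p 0.0975). GREM1 (gremlin), from 3.67 to 31.1 CPM in iEC and from 4.91 to 27.2 CPM in iREC, was not called, and its sign changed between alternatives. CHRD (chordin) had at most 12 counts. BMP1, a protease that cleaves chordin and procollagen and is not a BMP ligand, had 50.8, 51.3, 72.2 and 102 CPM in iEC and 50.9, 45.0, 51.2 and 78.7 CPM in iREC and was not called (log2 fold change -0.29 ± 0.26 (SE), adjusted p 0.453, edgeR).

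Of the receptors, 3 of 5 tested type I receptors were higher in iREC, and none of the type II receptors (0 of 4) was called by edgeR, DESeq2 or limma-voom. Over all genes tested, 25.0% were called, and the difference between the receptor types was not tested. BMPR2 was the 1 type II receptor with an unadjusted edgeR p under 0.05, at 0.0471. TGFBR1 (ENSG00000106799, chromosome 9, 99104038 to 99154192), also ALK5, the type I receptor of TGF-beta, had 25.0, 20.6, 18.0 and 25.4 CPM in iEC and 44.9, 95.2, 58.3 and 293 CPM in iREC. Every iREC library was above every iEC library, and F was well above the next (log2 fold change 2.47 ± 0.55 (SE), adjusted p 0.0108, edgeR). Without iREC F, the log2 fold change was 1.57 (adjusted p 0.00256). BMPR1A (ENSG00000107779, chromosome 10, 86756601 to 86932838), or ALK3, which binds BMP2 and BMP4, had 8.39, 5.12, 4.62 and 7.01 CPM in iEC and 9.16, 33.5, 16.9 and 64.6 CPM in iREC. iREC C barely exceeded the highest iEC library, and the rise (log2 fold change 2.30 ± 0.55 (SE), adjusted p 0.0139, edgeR) was 1.66 without iREC F (adjusted p 0.0186). limma-voom did not call BMPR1A, at an adjusted p of 0.0578. ACVR1B (ENSG00000135503, chromosome 12, 51951667 to 51997078), or ALK4, the activin and Nodal receptor, had 17.2, 15.9, 15.7 and 17.6 CPM in iEC and 23.9, 28.98, 33.2 and 33.7 CPM in iREC. This was a small and even rise of 1.80-fold, with tight libraries in both groups (log2 fold change 0.85 ± 0.15 (SE), adjusted p 0.00302, edgeR).

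The endothelial type I receptor ACVRL1 (ALK1) had 207, 279.6, 223 and 309 CPM in iEC and 234, 204, 245 and 116 CPM in iREC. The groups overlapped, with iREC F lowest of all 8 libraries, and it was not called (log2 fold change -0.35 ± 0.24 (SE), adjusted p 0.315, edgeR). ACVR1 (ALK2) lay between 20.6 and 25.0 CPM in all 8 libraries and was not called (adjusted p 0.545, edgeR). ACVR1C and BMPR1B had at most 23 counts in any library and were untested. Among type II receptors, TGFBR2, which binds TGF-beta first, had 913, 1281, 1314 and 1894 CPM in iEC and 1663, 2118, 2285 and 1117 CPM in iREC, with overlap (log2 fold change 0.41 ± 0.27 (SE), adjusted p 0.305, edgeR). BMPR2, the receptor mutated in heritable pulmonary arterial hypertension, had 122.7, 125, 151 and 145 CPM in iEC and 88.7, 103, 131 and 112 CPM in iREC. Its mean was lower in iREC but the groups overlapped (log2 fold change -0.32 ± 0.14 (SE), adjusted p 0.127, edgeR). The activin receptors ACVR2A and ACVR2B were not called either, at -0.01 ± 0.32 and 0.44 ± 0.30 (log2 fold change, SE).

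Of the coreceptors, TGFBR3 (ENSG00000069702, chromosome 1, 91680343 to 91906335), betaglycan, which presents TGF-beta 2 to its receptors, had 57.4, 139.9, 18.5 and 36.3 CPM in iEC and 304, 570.3, 699 and 396 CPM in iREC. The iEC libraries were uneven and iEC D was highest, yet all iREC libraries lay above it, with a 7.82-fold higher mean (log2 fold change 2.97 ± 0.58 (SE), adjusted p 0.00564, edgeR; 3.72 without iEC D). Endoglin (ENG), the coreceptor of ACVRL1, had 225, 240.4, 334 and 446 CPM in iEC and 181, 291, 296 and 162 CPM in iREC. It overlapped between groups and was not called (log2 fold change -0.42 ± 0.27 (SE), adjusted p 0.296, edgeR). BAMBI (ENSG00000095739, chromosome 10, 28677342 to 28682939), which resembles a type I receptor but lacks the kinase, had 3.71, 4.68, 4.03 and 5.30 CPM in iEC and 48.1, 35.5, 39.6 and 20.6 CPM in iREC. It rose 8.12-fold, with the lowest iREC library, F, still well above all iEC libraries (log2 fold change 3.02 ± 0.27 (SE), adjusted p 0.000105, edgeR). TGFBR3L stayed at or below 2.36 CPM and its sign changed between alternatives.

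On the FPKM scale, the most abundant receptor transcript in both groups was TGFBR2, at 287 ± 86.2 in iEC and 382 ± 111 in iREC (SD, n = 4). ENG stood at 79.2 ± 25.9 and 59.1 ± 18.0 FPKM, and ACVRL1 at 50.5 ± 9.53 and 39.6 ± 11.6 FPKM, about as far apart as their spread. TGFBR3 was 7.24 ± 6.17 FPKM in iEC and 56.6 ± 20.3 FPKM in iREC, where its level and that of ENG were within their spread. TGFBR1 was 3.25 ± 0.524 and 18.0 ± 16.9 FPKM, and BMPR2 11.4 ± 1.20 and 9.14 ± 1.501 FPKM. BMPR1A remained the lowest of the called receptors, at 0.551 ± 0.153 and 2.72 ± 2.16 FPKM.

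**Figure D4:**
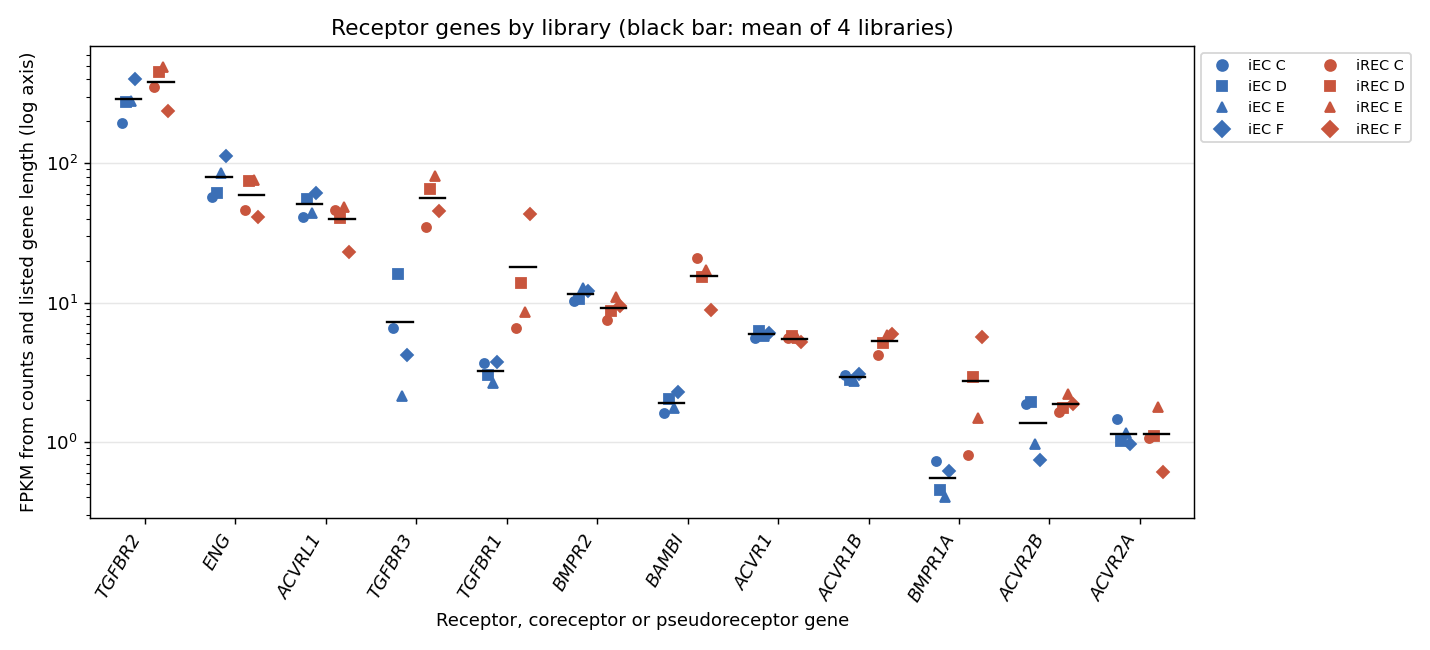
FPKM of 12 receptor, coreceptor and pseudoreceptor genes on a log axis, 1 symbol per library (blue iEC, red iREC) with the mean of 4 libraries as a black bar. TGFBR2 is highest in both groups; TGFBR3, TGFBR1, BAMBI, ACVR1B and BMPR1A have all iREC symbols above all iEC symbols.

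SMAD1 and SMAD9, both of the BMP branch, moved in opposite directions. SMAD1 (ENSG00000170365, chromosome 4, 145481194 to 145558079) had 84.3, 67.5, 73.7 and 75.9 CPM in iEC and 22.3, 21.6, 22.5 and 15.0 CPM in iREC. Libraries within each group were tight apart from a lower iREC F, and SMAD1 was 3.70-fold lower in iREC (log2 fold change -1.89 ± 0.16 (SE), adjusted p 7.67e-05, edgeR). SMAD9 (ENSG00000120693, chromosome 13, 36844831 to 36920765), which encodes SMAD8 and has weaker activity, had 1.69, 2.09, 2.25 and 2.08 CPM in iEC and 16.9, 20.5, 16.3 and 24.7 CPM in iREC. It rose 9.68-fold with similarly tight groups (log2 fold change 3.27 ± 0.22 (SE), adjusted p 2.62e-05, edgeR). SMAD5, the third of this branch, had 107, 92.0, 92.7 and 80.5 CPM in iEC and 75.0, 81.2, 88.4 and 70.7 CPM in iREC and was not called (log2 fold change -0.24 ± 0.12 (SE), adjusted p 0.192, edgeR). Per length, SMAD1 was 12.4 ± 1.14 FPKM in iEC, near SMAD5 at 10.3 ± 1.21 and far above SMAD9 at 0.354 ± 0.0414 (SD, n = 4). In iREC, SMAD1 at 3.36 ± 0.592 and SMAD9 at 3.43 ± 0.674 FPKM were within their spread, both below SMAD5 at 8.72 ± 0.855.

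The SMADs of the TGF-beta branch and the common SMAD4 were not called. SMAD2 had 93.7, 75.3, 86.2 and 99.99 CPM in iEC and 79.8, 85.7, 73.5 and 70.9 CPM in iREC (log2 fold change -0.20 ± 0.12 (SE), adjusted p 0.277, edgeR). SMAD3 had 58.0, 47.7, 84.9 and 134 CPM in iEC and 29.4, 67.0, 41.8 and 149 CPM in iREC, with F highest in both groups. The within-group range of SMAD3 was wider than the difference between groups (log2 fold change -0.17 ± 0.50 (SE), adjusted p 0.833, edgeR), and its sign changed between alternatives. SMAD4 had 54.3, 51.2, 50.4 and 41.4 CPM in iEC and 60.1, 55.2, 60.8 and 49.0 CPM in iREC (log2 fold change 0.19 ± 0.13 (SE), adjusted p 0.314, edgeR). Of the corepressors, TGIF1 (ENSG00000177426, chromosome 18, 3411608 to 3459978), which restrains SMAD2 and SMAD3, had 35.6, 30.5, 31.2 and 31.3 CPM in iEC and 5.76, 10.3, 7.02 and 18.5 CPM in iREC. It fell 3.09-fold, least in F (log2 fold change -1.63 ± 0.33 (SE), adjusted p 0.00697, edgeR). SKIL, from 6.13 to 8.52 CPM in iEC and from 8.90 to 11.5 CPM in iREC, did not overlap but was not called (adjusted p 0.129, edgeR).

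Both inhibitory SMADs, which feed back on the receptors, were higher in iREC. SMAD6 (ENSG00000137834, chromosome 15, 66702228 to 66782848) carries the palindrome across its GENCODE start, as given above. SMAD6 had 17.6, 31.6, 15.9 and 25.3 CPM in iEC and 42.0, 59.0, 36.0 and 147 CPM in iREC. C, D and E were modestly above iEC and F was the highest by a wide margin (log2 fold change 1.65 ± 0.45 (SE), adjusted p 0.0256, edgeR). Without iREC F, SMAD6 was 1.01 (adjusted p 0.0238), and its call was lost without iEC C, E or F, at adjusted p up to 0.0743. SMAD7 (ENSG00000101665, chromosome 18, 48919853 to 48952052), which blocks both branches, had 0.195, 0.822, 0.296 and 0.501 CPM in iEC and 3.08, 6.07, 5.01 and 17.7 CPM in iREC. It was near the floor in iEC and again highest in iREC F (log2 fold change 4.11 ± 0.67 (SE), adjusted p 0.00219, edgeR; 3.36 without iREC F, adjusted p 0.00159).

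The 4 ID genes, whose proteins bind and inactivate basic helix-loop-helix factors and which are standard readouts of BMP signalling, did not move together. ID4 (ENSG00000172201, chromosome 6, 19837386 to 19840684) had 1.63, 2.02, 2.49 and 4.29 CPM in iEC and 35.0, 38.3, 17.8 and 192 CPM in iREC. It was higher in every iREC library (log2 fold change 4.77 ± 0.80 (SE), adjusted p 0.0025, edgeR; 3.54 without iREC F, adjusted p 0.000348). ID2 (ENSG00000115738, chromosome 2, 8678845 to 8684453) had 2.21, 5.44, 3.14 and 6.58 CPM in iEC and 6.41, 21.1, 7.82 and 84.6 CPM in iREC. iREC C fell within the iEC range. The call for ID2 (log2 fold change 2.79 ± 0.82 (SE), adjusted p 0.0353, edgeR) was lost without iREC F, at 1.44 (adjusted p 0.0642), without iREC D, without any iEC library and with limma-voom, at adjusted p up to 0.139.

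ID1 (ENSG00000125968, chromosome 20, 31605283 to 31606515) and ID3 (ENSG00000117318, chromosome 1, 23557918 to 23559794), the more abundant ID genes in iEC, lay below their iEC mean in 3 of the 4 iREC libraries. ID1 had 80.0, 94.0, 72.7 and 121 CPM in iEC and 21.5, 49.2, 17.9 and 122 CPM in iREC. iREC C, D and E were below all iEC libraries and F was level with the highest of them, and ID1 was not called (log2 fold change -0.80 ± 0.54 (SE), adjusted p 0.316, edgeR). Without iREC F it was called lower, at -1.64 (adjusted p 0.0104). ID3 had 209, 227, 144 and 255 CPM in iEC and 83.4, 151, 66.5 and 311 CPM in iREC, again highest in F. Its iREC D value lay within the iEC range, and ID3 was not called (log2 fold change -0.45 ± 0.44 (SE), adjusted p 0.496, edgeR). Without iREC F, ID3 was called lower, at -1.06 (adjusted p 0.0313). Per length, ID3 was 116 ± 26.3 FPKM and ID1 74.5 ± 17.2 FPKM in iEC, against 1.97 ± 0.915 for ID2 and 1.11 ± 0.503 for ID4 (SD, n = 4).

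**Figure D5:**
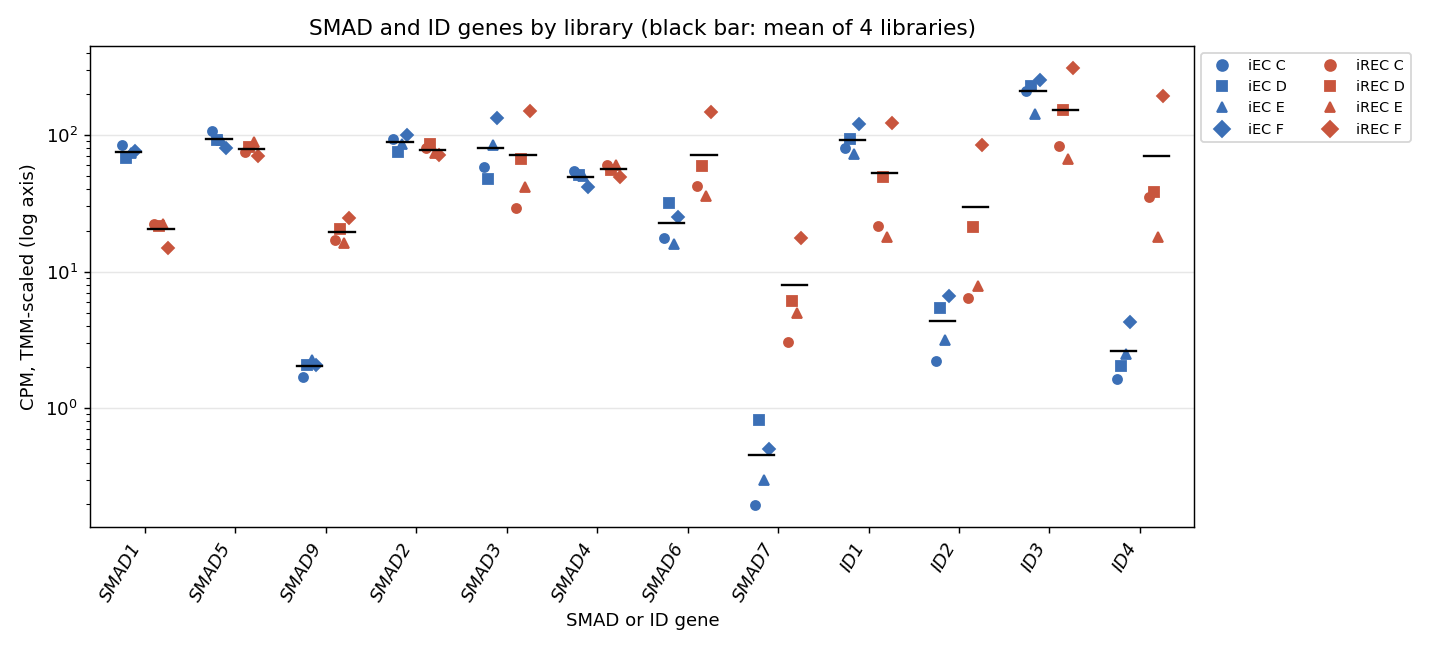
CPM of 8 SMAD and 4 ID genes on a log axis, 1 symbol per library (blue iEC, red iREC) with the mean of 4 libraries as a black bar. The iREC F diamond is the highest iREC symbol for SMAD3, SMAD6, SMAD7 and all 4 ID genes.

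Several members had their highest iREC level by far in library F. Of the 51 tested members, 13 had at least 2 times the level of every other iREC library in F (25.5%, against 4.01% of all tested genes). They were GDF6, INHBB, TGFB2, TGFB3, NOG, TGFBR1, SMAD3, SMAD6, SMAD7 and the 4 ID genes. In iREC C, D and E no member (0) stood out in this way, against 0.665%, 0.137% and 1.26% of all tested genes. A library below F in a gene could not pass this rule there. iREC D was next after F in all of the members just named except TGFB3. TGFBR1, for example, had 95.2 CPM in D against 44.9 and 58.3 CPM in C and E, and ID1 49.2 against 21.5 and 17.9 CPM. In iEC, library D stood out in BMP6, GDF3 (a single count), GDF7, INHBB and TGFBR3 (9.80% of members, against 2.03% of all tested genes), and F in LTBP3, TGFB2 and TGFBR3L (5.88% against 1.83%). Mesenchymal and epithelial marker sums were also highest in iREC F, as was the pluripotency sum through LIN28A. Among the iREC libraries, D came next in each of these sums. The part of these markers in the values was not tested. BMP4, BMPER and SMAD9, by contrast, had log2 fold changes of 5.37, 7.22 and 3.14 without iREC F, against 5.46, 7.29 and 3.27 with it. Genes that match only by name were not called. PAQR3 on the opposite strand overlaps 56.8% of BMP2K exon bases, so its counts are uncertain. BMP2K, a kinase of endocytosis, and TGFBRAP1, a trafficking protein, had edgeR adjusted p of 0.385 and 0.19. TGFBRAP1 had 77.5, 94.6, 95.5 and 84.8 CPM in iEC and 69.1, 72.2, 89.2 and 63.7 CPM in iREC.

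Other genes of the pathway were taken from 6 lists, whose counts stand beside 25.0% called, 13.2% higher and 11.7% lower over all genes tested, and whose medians stand beside 0.02. Some listed genes passed the filter through 1 group only, among them AMHR2, FST and TMEM100 through iREC, so counts and medians are descriptions. Among ligands and coreceptors outside the naming rule, 2 of 7 tested genes were called, or 28.6%, near the share over all genes. CD109, a coreceptor that dampens TGF-beta signalling, fell from 202 ± 43.1 to 62.7 ± 13.8 CPM (n = 4, SD), with adjusted p 0.000555 in edgeR. AMHR2, chosen after its values were seen, had at most 1 count in iEC and a mean of 2.32 CPM in iREC (edgeR adjusted p 0.00026). Of 8 tested secreted antagonists, 4 were higher (50%) and 1 lower (12.5%), with a median log2 fold change of 1.64, or 0.85 over the 6 that passed the filter in both groups. The matrix proteoglycan BGN rose from 25.7 ± 21.9 to 489 ± 36.9 CPM and the follistatin-like FSTL1 from 210.4 ± 46.4 to 1099.6 ± 722 CPM (SD, n = 4). CRIM1, a transmembrane BMP-binding protein, rose from 672 ± 92.0 to 1248 ± 136 CPM, while NBL1 fell from 44.7 ± 16.98 to 22.9 ± 2.86 CPM, a call lost without iEC E, iREC C or iREC E. FST (follistatin), the other called gene, had at most 2 counts in iEC and reached 1.503 ± 0.576 CPM in iREC.

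Of 14 tested genes of the latent complex and of ligand processing, 6 were higher (42.9%) and 1 lower (7.14%), with a median log2 fold change of 0.56. TLL1, a protease related to BMP1 that cleaves chordin, rose from 2.38 ± 0.734 to 178 ± 64.3 CPM (n = 4, SD), with adjusted p 2.03e-05 in edgeR. FBN1 (fibrillin 1), the scaffold to which latent complexes attach, rose from 73.9 ± 27.8 to 356 ± 76.6 CPM, and EMILIN1, which holds back pro-TGF-beta, from 1.61 ± 0.726 to 6.04 ± 0.849 CPM. The protease MMP2 fell from 47.8 ± 14.2 to 6.69 ± 2.04 CPM. Intracellular regulators moved both ways, with 4 higher (18.2%) and 5 lower (22.7%) of 22 tested (median -0.02). SMURF2, a ubiquitin ligase of SMADs and receptors, fell from 241 ± 87.8 to 51.5 ± 10.1 CPM, FKBP1A, which keeps type I receptors silent, from 1090.3 ± 247 to 514 ± 80.6 CPM and RUNX1 from 30.2 ± 10.8 to 15.5 ± 1.07 CPM. HIPK2 rose to 489 ± 63.8 from 258 ± 27.6 CPM, USP9X, a deubiquitinase of SMAD4, to 291 ± 36.9 from 159 ± 9.55 CPM, and the SMAD anchor ZFYVE9 to 35.3 ± 3.98 from 22.5 ± 2.24 CPM.

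TGF-beta response genes moved both ways: 8 were higher (38.1%) and 5 lower (23.8%) of 21 tested. The median log2 fold change was 1.57, and 2.10 over the 19 that passed the filter in both groups. FN1 (fibronectin) rose from 335 ± 173 to 13379 ± 3052 CPM, POSTN (periostin) from 13.4 ± 13.4 to 852 ± 335 CPM and CNN1 (calponin, of contractile cells) from 1.72 ± 1.01 to 48.6 ± 44.8 CPM (SD, n = 4). NOX4, an oxidase gene, fell from 27.2 ± 3.22 to 0.295 ± 0.0812 CPM, and the cell cycle inhibitors CDKN2B from 23.9 ± 6.78 to 0.522 ± 0.470 CPM and CDKN1A from 856 ± 344 to 289.6 ± 47.2 CPM. The log2 fold change of CNN1 was 3.95 without iREC F against 4.83 with it, and that of POSTN was 6.72 without iEC F against 5.99. COL1A1, COL1A2 and COL3A1 of this list are also in the mesenchymal marker list and were not called. BMP and ALK1 response genes were higher in 8 of 13 tested (61.5%), and the other 5 were not called by edgeR. The median log2 fold change was 1.10, and 0.82 over the 8 that passed the filter in both groups, of which 5 were higher. Which signal moved the genes of either response list was not tested. ID1 and ID3, the readouts of BMP signalling given above, were not called and had lower means in iREC. TMEM100, a target of BMP9 and BMP10 in arteries, had 0, 3.79, 0 and 0.0716 CPM in iEC and 594, 385, 386 and 213 CPM in iREC. HEY2 rose from 5.32 ± 3.08 to 45.4 ± 12.8 CPM. GJA5, the arterial connexin 40, had 0.130, 16.1, 0.118 and 1.29 CPM in iEC and 413, 610.5, 546 and 649 CPM in iREC. iEC D carried most of the iEC signal in both TMEM100 and GJA5, whose log2 fold changes of 8.65 and 6.97 were 13.68 and 10.12 without it.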

How the data were processed

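Poly-A RNA of 8 libraries was sequenced, and the deposited table was analysed. Reads were handled with fastp and HISAT2 2.0.5 on build hg38, per the submitters' processing notes. The counting program, its strand setting and its annotation are not given in the sources used here. The deposited raw counts per gene, per the file headers, were the input of every test. The deposited table also holds the authors' normalized signal (each count divided by 1 factor per library), the authors' FPKM values, and the authors' log2 fold changes with p-values, made with a program that is not stated. FPKM printed here were recomputed from counts and the gene lengths listed by the authors. One family member is counted in the totals and its values are not reported here. The members and lists were chosen with earlier results of these data known.

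Genes were filtered with filterByExpr (minimum count 10, 15330 of 30386 kept) and tested with edgeR 4.0.16 (TMM, quasi-likelihood F-test, R 4.3.3). P-values were adjusted by Benjamini-Hochberg over all genes tested. The SE of a log2 fold change was derived from the test, as its absolute value divided by the square root of the F statistic. The fit was tested on simulated data. limma 3.58.1 (voom), DESeq2 1.42.0, other scalings and filters, a replicate-letter block and the omission of each library were alternatives. Values per library are given for called members whose mean reached 5 CPM in either group, and for others that reached 50 CPM. Of each pathway list, up to 3 called genes per direction with the largest fold change and at least 5 CPM in a group are named. Total counts were 13739364 to 16971865 per library, and the precision depends on these and on the spread between libraries of a group. Counting error alone sets the floor of 3 counts.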

Additional observations from a re-analysis of the deposited data

Results flagged for a closer look

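Dixon's test on log2 CPM set a library apart from the other 3 of its group in 6 of 102 groups of 4 examined. Chance gives about 5. The test compares the gap to the nearest library with the range of the group, so a small difference between tight libraries can pass. It did not flag iREC F in any of the 13 members that had at least 2 times the level of every other iREC library there. The count therefore does not measure how far F stood apart in those members. The values of the flagged groups are given in CPM. GDF3 was 0.0632 CPM in iEC D and 0 in the others, which is a single count. GDF7 was 4.05 CPM in iEC D against 0.215 to 0.260 CPM in the other iEC libraries. LTBP4 was 5.69 CPM in iREC C against 11.8 to 13.4 CPM in the others. BMPER was 57.1 CPM in iREC C against 115 to 127 CPM. SMAD1 was 15.0 CPM in iREC F against 21.6 to 22.5 CPM. TGIF1 was 35.6 CPM in iEC C against 30.5 to 31.3 CPM.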

How the results depend on the processing

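Of the 26 called members, 21 kept their call and direction under all 16 alternatives, 5 lost the call at least once (BMP2, GDF11, BMPR1A, SMAD6 and ID2) and 0 reversed. The number of members called higher ranged from 17 to 21 and lower from 5 to 8. Of 25 members not called, ID1 and ID3 became lower without iREC F. Of the members not called, 6 changed sign, and the 5 reported here were as follows, with single omissions of a library given by their range. LTBP3 log2 fold change was 0.12 with limma-voom, 0.074 with the replicate block, and -0.50 (without iEC D) to 0.52 (without iEC F). GREM1 log2 fold change was -0.82 (without iREC F) to 0.0042 (without iEC E). ACVR2A log2 fold change was 0.033 with upper-quartile scaling, 0.021 with the stricter filter, and -0.31 (without iREC E) to 0.19 (without iREC F). TGFBR3L log2 fold change was 0.36 with limma-voom, 0.074 with the block, and -0.65 (without iEC D) to 0.83 (without iEC F). SMAD3 log2 fold change was -0.82 (without iREC F) to 0.17 (without iEC F). The cause was not tested. Under the stricter filter 1 gene of the ligand and coreceptor list was called, since fewer genes were tested. The all-gene calls numbered 3829, and 4664 with DESeq2 and from 2660 (without iREC D) to 4214 (without iREC F) with a library left out.

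The labels give both groups the letters C to F. Deviations of same-letter libraries correlated at 0.168, -0.079, 0.029 and 0.250 for C, D, E and F. Different-letter pairs ranged from -0.221 (iEC D with iREC F) to 0.178 (iEC D with iREC C), and the F pair was the highest of all. Neither the labels nor these values settle whether the letters pair samples, and the main fit took them as unpaired. With the replicate block, 3334 genes were called, 3098 of them shared, and the members numbered 20 higher and 6 lower.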
